A study of Bos taurus with 20 samples.

Results

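The genes described here encode the contractile and calcium-handling machinery of fast skeletal muscle fibres: MYH1, MYH2, MYLPF, TNNT3, TNNI2, TNNC2, ATP2A1, ACTN3, MYOZ1 and TPM1. They were taken by name, and 9 of the 10, among 9155 genes that the array annotation names, had at least 1 probe set carrying their symbol or gene identifier there. Together these 9 genes had 19 of the 24016 probe sets on the array that were not array controls, and 16 of the 19 were tested. MYH2 was not matched to any probe set and was not analysed here. MYLPF stood in the annotation as MYL11, a symbol that RefSeq lists for the same gene.

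The samples were Musculus longissimus dorsi, the long muscle of the back, of 20 crossbred Holstein x Charolais F2 bulls, from a cross of a dairy and a beef breed. The labels put 10 in a group high and 10 in a group low in intramuscular fat (IMF), the fat held between and within muscle fibres, and each animal had its own microarray. The labels name no treatment, genotype or age. Of the 20 animals, 10 carried an S before the number in their title and 10 did not (here called the title series), and each set of 10 held 5 animals of either IMF group. The meaning of the S is not given.

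A muscle fibre shortens when calcium leaves the sarcoplasmic reticulum, binds troponin C on the thin filament and so lets tropomyosin move away from the sites where myosin heads attach. It relaxes when a calcium pump returns the ion to the reticulum. Fast and slow fibres use different members of the same protein families for these steps, so the transcripts of fast myosin, troponins and pump mark the fast, largely glycolytic fibres that make up much of the long back muscle of cattle. In a piece of whole muscle, fewer fibres of a type and less RNA per fibre cannot be told apart.

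The array medians ran from 51.6 to 67.6 signal units, with high IMF replicates 6 (51.6) and 9 (56.6) the lowest, both of the S series. High IMF replicates 6, 8 and 10 and low IMF replicate 3 had an albumin signal over 2000. The tests of the fast fibre probe sets were also run without these arrays. The counts of other gene lists and the correlations are given with them only. The tissue label was checked against 7 muscle fibre markers. Of these, 6 had a probe set and all 6 passed the filter on dim values, and their summed signal lay between 67520 and 78633 in high IMF muscle and between 72696 and 80827 in low IMF muscle. Of 6 adipocyte markers, 5 had a probe set and 3 passed the filter. The summed signal of the 5 ran from 1509 through a median of 3352 to 18352 in high IMF animals. In low IMF animals it ran from 985 through 1628 to 8960, with no marker at 0 on every array. All differences below are on the scale of log2(signal + 1), each probe set is compared only with itself across animals, and the probe sets of a gene are numbered from the highest mean signal to the lowest.

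High and low IMF muscle were compared first, since IMF is the trait the study was built on. None of the 16 tested probe sets of the fast fibre genes passed the test between the IMF groups in limma with Benjamini-Hochberg adjustment, and 0 of 16 had an unadjusted p under 0.05. The background was the same: 0 of 14409 probe sets, or 0%, were called, and 237 had an unadjusted p under 0.05. The 16 differences ran from -0.22 to 0.16 with a median of -0.0068, against a median of -0.03 over all tested probe sets. The unpaired t-test also called 0 probe sets, with 253 at an unadjusted p under 0.05. Neither of these held the title series. With it in the limma model, 0 probe sets were called (lowest adjusted p 0.460) and 1050 had an unadjusted p under 0.05. None of the 16 was among the 1050. The median SE over all tested probe sets was 0.112 in that model, against 0.159 with IMF alone.

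**Figure D1:**
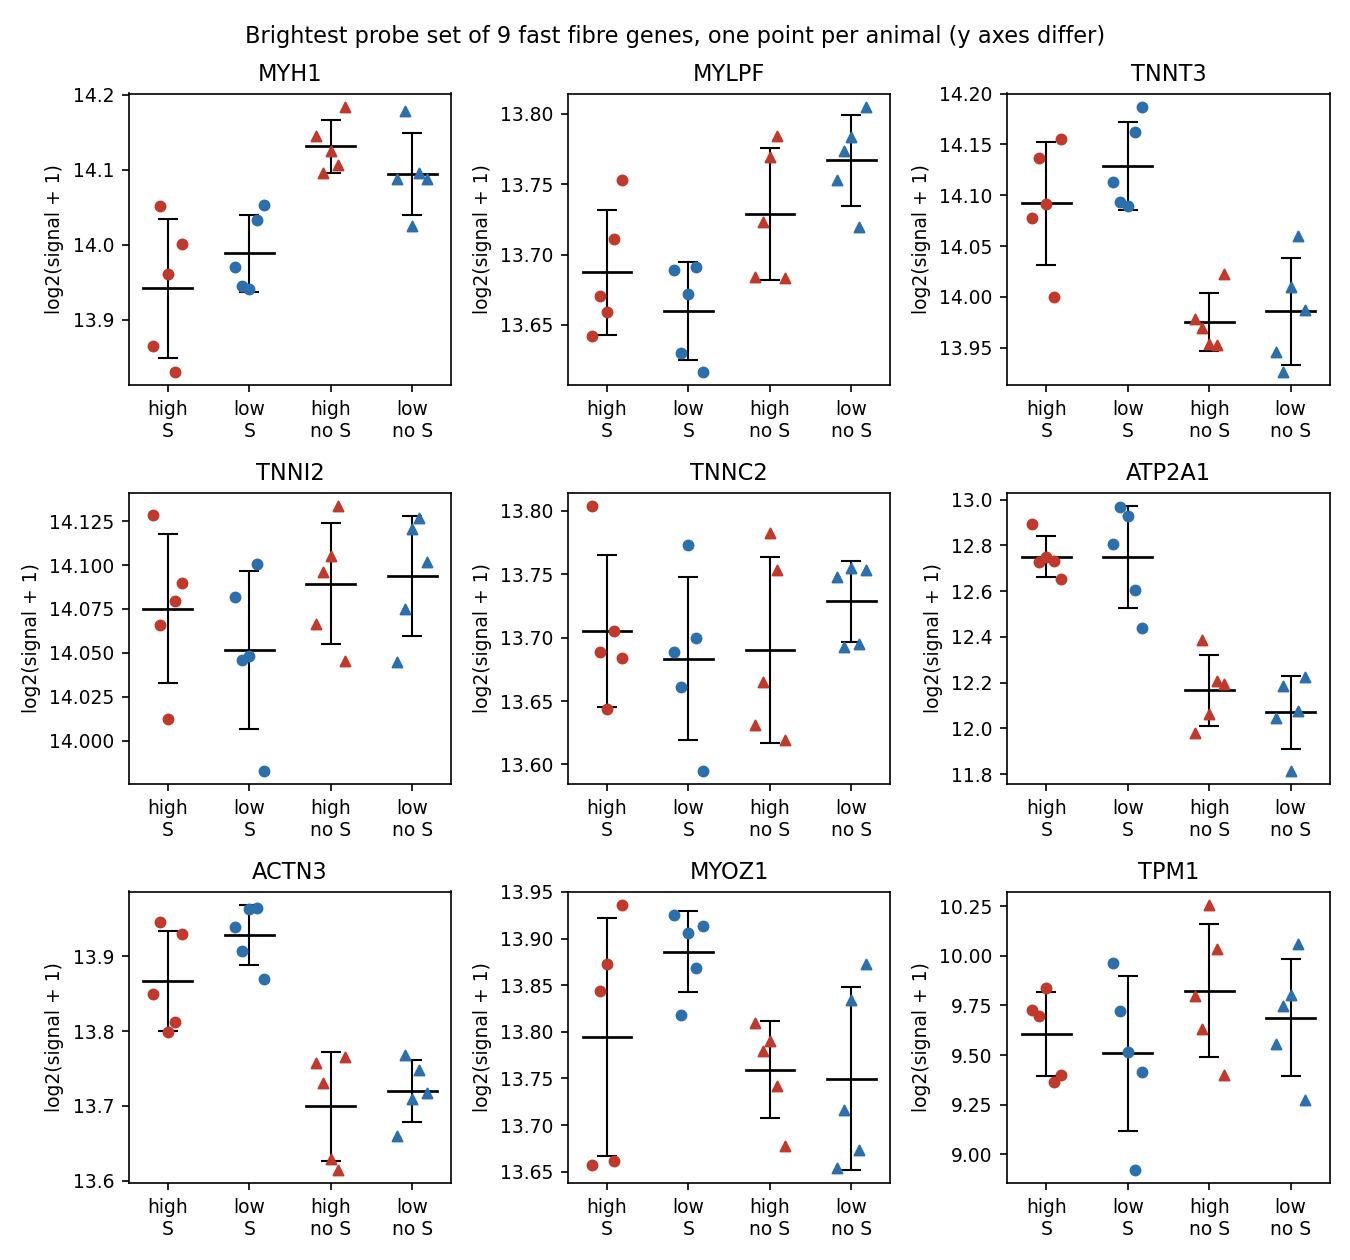
Log2(signal + 1) of the first-numbered probe set of each of the 9 genes, 1 point per animal, in 4 columns by IMF group and title series (red for high IMF, blue for low IMF, circles for S, triangles for no S), with a line at the mean of 5 animals and bars of 1 SD. High and low IMF columns of the same title series overlap in every panel, while the S animals lie wholly above the no S animals in the ATP2A1 and ACTN3 panels.

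Myosin supplies the motor, and MYH1 encodes the heavy chain of the fastest fibre class of bovine muscle, type 2X. MYH1 probe set 1 had a lowest, median and highest signal of 14569, 17249 and 18615 in high IMF animals, against 15731, 16881 and 18537 in low IMF animals. The ranges overlapped over most of their length, the log2 difference was -0.0051, and its 95% interval ran from -0.15 to 0.14. Probe sets 2, 3 and 5 differed by -0.05, -0.00073 and -0.06, and each interval held 0. Probe set 4 had the largest absolute difference of the 16, -0.22 (interval -0.58 to 0.14), with a lowest, median and highest signal of 318, 438 and 829 in high IMF animals, against 448, 501 and 974 in low IMF animals. Among S animals it had 318 to 463 in the 5 high IMF animals and 465 to 504 in the 5 low IMF animals. How many of all tested probe sets had IMF groups that did not overlap within S was not counted, so nothing is drawn from this. The limma adjusted p within S was 0.625 (unadjusted 0.0185), and within no S animals the difference was -0.14. MYLPF, the regulatory light chain that sits on the neck of fast myosin, had a lowest, median and highest signal of 12783, 13286 and 14108 in high IMF animals, against 12560, 13358 and 14312 in low IMF animals, on probe set 1. Its difference was -0.0053 (interval -0.13 to 0.12), and on probe set 2 it was 0.08 (interval -0.13 to 0.30).

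The 3 fast troponins showed no IMF difference past the test. TNNT3, which ties the troponin complex to tropomyosin, had a lowest, median and highest signal of 15859, 16510 and 18240 in high IMF animals, against 15566, 17252 and 18651 in low IMF animals. TNNI2, the subunit that holds the filament in the inhibited state, had 16521, 17376 and 17975 in high IMF animals, against 16187, 17296 and 17889 in low IMF animals. TNNC2, the calcium sensor, had 12581, 13181 and 14301 in high IMF animals, against 12372, 13281 and 13996 in low IMF animals. For each of the 3 genes the groups covered nearly the same range. The log2 differences were -0.02 (interval -0.16 to 0.11) for TNNT3, 0.0095 (interval -0.11 to 0.13) for TNNI2 and -0.0083 (interval -0.14 to 0.12) for TNNC2.

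ATP2A1 encodes SERCA1, the calcium pump of the sarcoplasmic reticulum in fast fibres. Its probe set 1 had a lowest, median and highest signal of 4037, 5900 and 7610 in high IMF animals, against 3601, 5169 and 8017 in low IMF animals. Its difference of 0.05 had an interval from -0.29 to 0.38, wider than that of the troponins. This fit held IMF alone and gave an SE of 0.162, against 0.079 with the title series in the model. ATP2A1 probe set 2 had 520, 603 and 799 signal units in high IMF animals, against 477, 529 and 848 in low IMF animals. This was the highest IMF difference among the 16, 0.16 (interval -0.09 to 0.41), and 9 of 10 high IMF animals lay above the low IMF median, but its adjusted p was 0.9997.

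ACTN3, the alpha-actinin that crosslinks actin at the Z disc of fast fibres, had a lowest, median and highest signal of 12541, 14088 and 15781 in high IMF animals, against 12939, 14458 and 15985 in low IMF animals, a difference of -0.04 (interval -0.19 to 0.11). MYOZ1, which binds alpha-actinin and calcineurin at the Z disc, had 12922, 14112 and 15674 in high IMF animals, against 12887, 14775 and 15551 in low IMF animals, a difference of -0.04 (interval -0.19 to 0.10). Both genes had a lower median in high IMF animals, by less than the range of either group. TPM1, the alpha-tropomyosin strand of the thin filament, had 659, 838 and 1223 on probe set 1 in high IMF animals, against 484, 797 and 1067 in low IMF animals. It differed by 0.12 (interval -0.18 to 0.41) on probe set 1 and by -0.17 (interval -0.64 to 0.31) on probe set 2.

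The precision of the values depended on the signal. The residual SD was taken from the fit with IMF, title series and their interaction. Its median was 0.109 over the 140 tested probe sets with a mean log2 of at least 13. Over those below 8 it was 0.282. The fast fibre probe sets ran from 0.039 for TNNI2 to 0.503 for TPM1 probe set 2. The intervals above came from the fit with IMF alone. The median residual SD of the 16 was 0.159 in that fit, against 0.099 in the fit with the interaction. Between 9 and 24 probe sets per array exceeded 15000 signal units, and the first probe sets of MYH1, TNNT3 and TNNI2 were at that end of the scale. MYH1 probe sets 2 and 3, ACTN3 and MYOZ1 reached it in some animals, with highest signals of 16956, 15968, 15985 and 15674. Whether differences are compressed at that end was not tested.

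**Figure D2:**
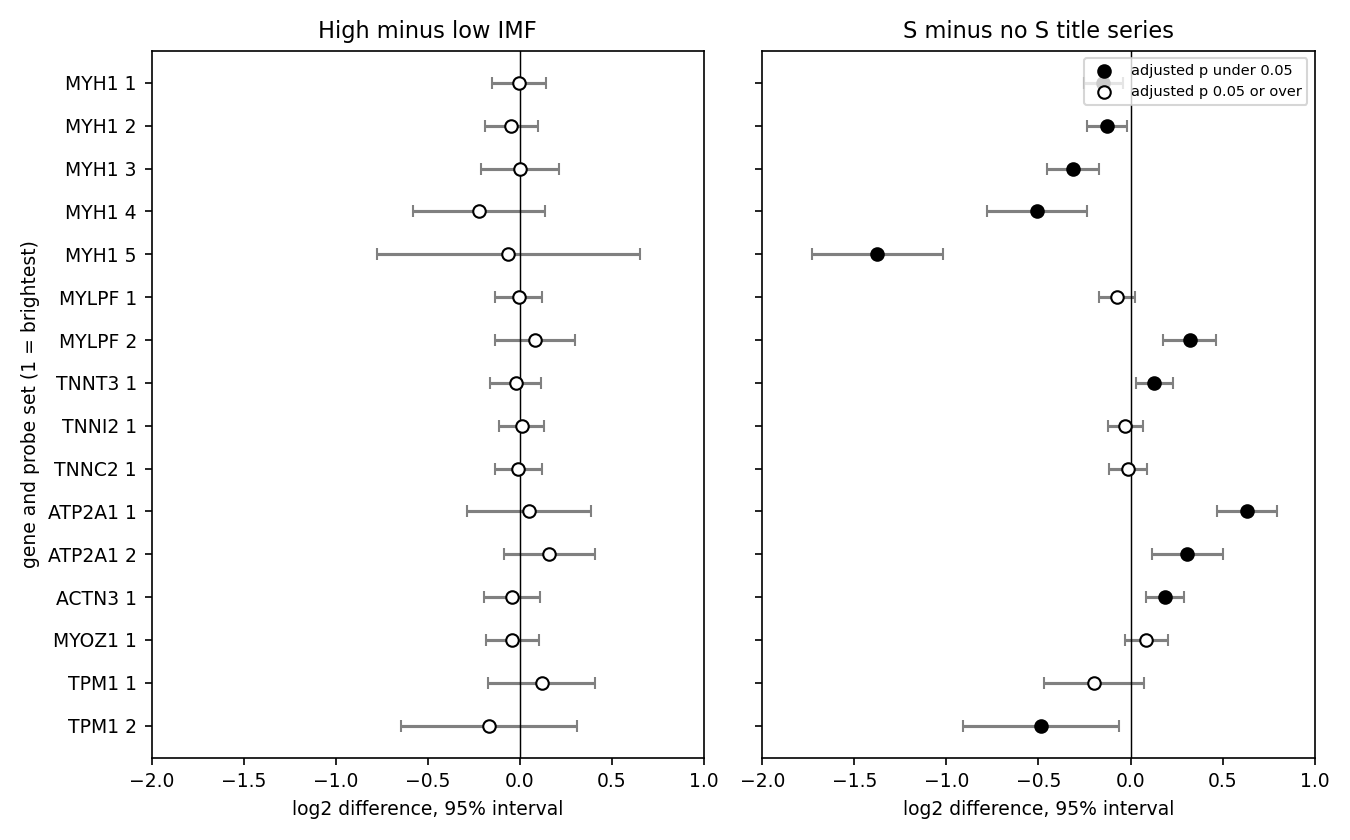
Log2 differences with 95% intervals of the 16 tested probe sets, high minus low IMF on the left and S minus no S title series on the right, filled where the limma adjusted p was under 0.05. No point is filled on the left; on the right 11 are, with the 5 MYH1 probe sets and TPM1 probe set 2 below 0 and ATP2A1, ACTN3, TNNT3 and MYLPF probe set 2 above it.

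The title series was compared next, with the IMF group in the model, because it divides each IMF group evenly. Of the 16 fast fibre probe sets, 11 passed the test, 5 higher and 6 lower in S animals. That share was near the background, since 68.4% of all 14409 tested probe sets were called, 33.5% higher and 35% lower in S, so it says nothing particular about these genes. Groups that did not overlap at all were seen for 2 of the 16, against 19.8% of all tested probe sets.

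MYH1 was lower in S animals on all 5 tested probe sets. Probe set 1 had a lowest, median and highest signal of 14569, 15999 and 16996 in S animals, against 16673, 17574 and 18615 in no S animals, a difference of -0.15 (SE 0.05, adjusted p = 0.0139). All 10 S animals lay below the no S median, although the ranges still met. Probe set 3 had 9785, 11480 and 13361 in S animals, against 12881, 14348 and 15968 in no S animals, a difference of -0.31 (adjusted p = 0.000348). Probe set 2 had 13025, 14896 and 15567 in S animals, against 15209, 15601 and 16956 in no S animals, a difference of -0.13 (adjusted p = 0.0328). The dimmer probe sets gave larger differences: -0.51 on probe set 4 (adjusted p = 0.00176) and -1.37 on probe set 5 (adjusted p = 6.63e-07), which had 37.9, 58.1 and 124 signal units in S animals, against 117, 159 and 232 in no S animals.

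The calls of MYH1 probe sets 1 and 2 depended on the scaling and on the arrays used. With each array centred on its median, the differences were -0.08 and -0.06 (adjusted p = 0.176 and 0.285), and under quantile normalization -0.09 and -0.08 (adjusted p = 0.102 and 0.122). Without the 4 arrays rich in albumin signal the differences were about as large as with them, -0.15 and -0.14, with adjusted p values of 0.0585 and 0.0804. Without high IMF replicates 6 and 9 probe set 2 differed by -0.09 (adjusted p = 0.107). Probe set 2 also lost its call when any 1 of 5 animals was left out (high IMF replicates 4, 6 and 9, low IMF replicates 5 and 6; adjusted p 0.0511 to 0.0615). All 5 probe sets stayed lower in S under both scalings. The difference of probe set 3 was -0.25 after centring (adjusted p = 0.00135) and -0.25 under quantile normalization (adjusted p = 0.000654). Within high IMF animals alone it was -0.43 (limma, adjusted p = 0.00477), and within low IMF animals -0.19, which did not pass (adjusted p = 0.104). Probe sets 4 and 5 passed within both IMF groups. Probe sets 6, 7 and 8 were left out of the test as dim, with a highest signal of 45.6, 11.4 and 19.5 in any animal, and no difference is drawn from them. MYH genes are near-identical to each other in places, MYH1 stands between MYH4 and MYH2 in the RefSeq gene order, and how far each probe set also binds other MYH transcripts was not tested. Probe set 4 carries the suffix that marks probes shared with other sequences.

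**Figure D3:**
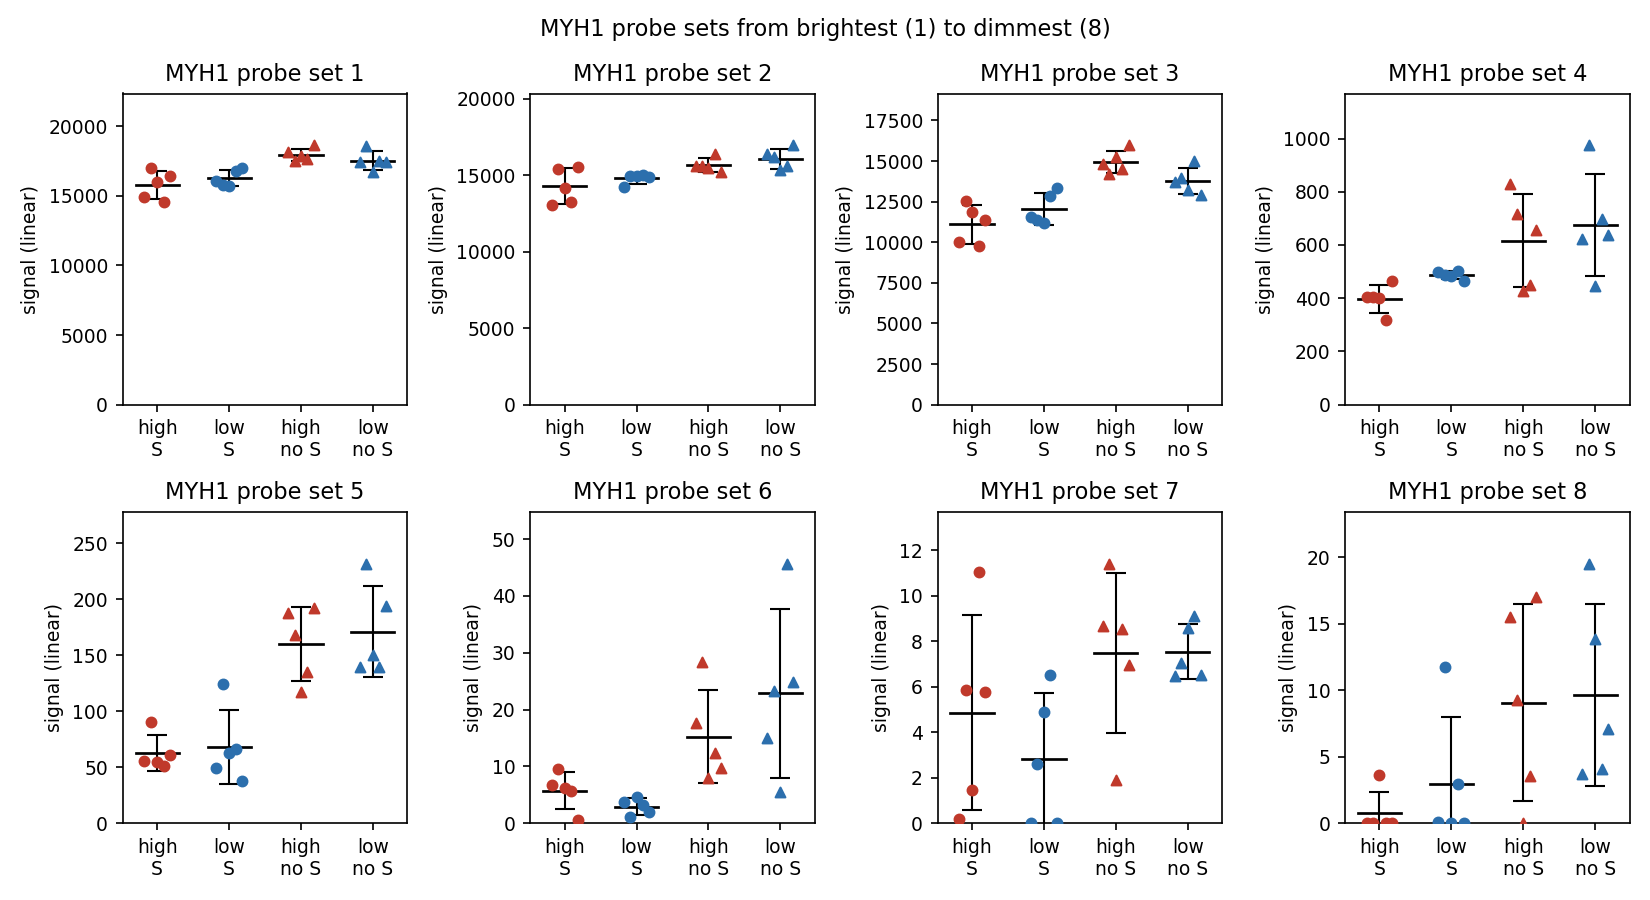
Signal of the 8 MYH1 probe sets on linear axes from 0, 1 point per animal, in columns by IMF group and title series (red for high IMF, blue for low IMF, circles for S, triangles for no S), with the mean of 5 animals and bars of 1 SD, drawn no lower than 0. The means of the S columns lie below those of the no S columns in each panel from 1 to 5, and probe sets 6 to 8 reach at most 45.6 signal units.

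ATP2A1 moved the other way. Probe set 1 had a lowest, median and highest signal of 5550, 6848 and 8017 in S animals, against 3601, 4490 and 5360 in no S animals. The groups did not overlap, and S was 1.55-fold higher (95% interval 1.38 to 1.74, log2 difference 0.63, adjusted p = 6.89e-07). Both IMF groups showed it, with 0.58 within high IMF animals and 0.68 within low IMF animals (limma, adjusted p = 0.00108 and 0.00106). Among the 414 tested probe sets with a mean log2 of at least 12, 7.73% had a larger absolute difference. Over all 14409 tested probe sets, 31.1% did. Without the 4 arrays rich in albumin signal it was 0.59 (adjusted p = 4.61e-05). ATP2A1 probe set 2 was higher by 0.31 (adjusted p = 0.00582), with 507, 688 and 848 signal units in S animals, against 477, 529 and 688 in no S animals. Within the IMF groups probe set 2 differed by 0.27 in high IMF animals and 0.35 in low IMF animals and did not pass in either (limma, adjusted p = 0.0905 and 0.0565).

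ACTN3 had a lowest, median and highest signal of 14246, 15478 and 15985 in S animals, against 12541, 13531 and 13946 in no S animals, again with no overlap, and was higher by 0.19 (adjusted p = 0.00209). Within high IMF animals it differed by 0.17 and did not pass (limma, adjusted p = 0.127), and within low IMF animals by 0.21 (adjusted p = 0.0486). In size this change was ordinary, since 56.8% of the 414 bright probe sets changed more. TNNT3 had 16379, 17596 and 18651 in S animals, against 15566, 16091 and 17075 in no S animals, higher by 0.13 (adjusted p = 0.0200). All 10 S animals lay above the no S median for TNNT3, and without the 4 arrays rich in albumin signal the difference was again 0.13 with an adjusted p of 0.0948. It was larger with arrays centred (0.20, adjusted p = 0.00374) or quantile normalized (0.23, adjusted p = 0.000745), and it did not pass within high IMF (0.12) or low IMF animals (0.14) alone.

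TNNI2 and TNNC2 did not pass. TNNI2 had 16187, 17230 and 17911 in S animals, against 16898, 17545 and 17975 in no S animals, a difference of -0.03 with a 95% interval from -0.12 to 0.07. TNNC2 had 12372, 13202 and 14301 in S animals, against 12581, 13505 and 14090 in no S animals, a difference of -0.02 (interval -0.12 to 0.09), and 97.8% of the bright probe sets changed more. The sign of both turned to positive when arrays were centred (0.038 and 0.051) or quantile normalized (0.075 and 0.042). 

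TPM1 probe set 1 had a lowest, median and highest signal of 484, 780 and 997 in S animals, against 617, 874 and 1223 in no S animals, a difference of -0.20 (interval -0.47 to 0.07). TPM1 probe set 2 had 24.6, 52.4 and 74.1 in S animals, against 46.9, 64.9 and 110 in no S animals, and was lower in S (-0.49, adjusted p = 0.0387). This call was lost when any 1 of 9 animals was left out (high IMF replicates 1, 3, 6 and 9, low IMF replicates 2, 3, 4, 8 and 9; adjusted p 0.0578 to 0.0805), and it did not pass within either IMF group. The difference was -0.47 without the 4 arrays rich in albumin signal (adjusted p = 0.105) and -0.30 without high IMF replicates 6 and 9 (adjusted p = 0.169).

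The pair of MYLPF probe sets did not give the same picture. Probe set 1 had 12560, 13047 and 13804 in S animals, against 13157, 13885 and 14312 in no S animals, a difference of -0.07 that did not pass (adjusted p = 0.164). Probe set 2 had 1999, 2318 and 2462 in S animals, against 1488, 1845 and 2230 in no S animals, and was higher by 0.32 (adjusted p = 0.000412). Within low IMF animals it was higher by 0.45 (limma, adjusted p = 0.00352), and within high IMF animals its difference of 0.20 did not pass (adjusted p = 0.119). MYOZ1 had 12922, 14976 and 15674 in S animals, against 12887, 13877 and 14997 in no S animals. Its difference of 0.09 did not pass (adjusted p = 0.185), while after centring it was 0.15 with an adjusted p of 0.0211.

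Array controls moved with the title series. All 18 hybridisation control probe sets, whose RNA is added in the laboratory and comes from no animal, were lower in S arrays, by -0.88 to -0.23 with a median of -0.65, and 13 did not overlap with no S arrays. Of the 24 poly-A controls, which the Affymetrix protocol adds to the RNA before labelling, 15 were higher and 9 lower in S arrays, from -0.98 to 1.03. No control set was separated by IMF group. The 3' minus 5' log2 signal of actin, a sign of RNA quality, had a median of -0.38 in S and -0.21 in no S animals, and that of GAPD -0.39 in S and -0.35 in no S animals. Of 4 macrophage markers, 3 had a probe set and 2 passed the filter. The summed signal of the 3 was 237 to 377 in S animals and 101 to 244 in no S animals. None of the 3 was at 0 on every array. Of the other marker lists, 2 of 3 tested adipocyte genes were higher in S (FABP4 1.45, CIDEC 1.84) and 1 lower (LPL -0.73), and 2 of 5 fibroblast and matrix genes were higher (COL1A1 1.53, COL1A2 0.69) and 1 lower (DCN -0.40). Higher in S were also 2 of 3 smooth muscle genes, with 1 lower, 2 of 4 endothelial genes, 1 of 2 red blood cell genes and 1 of 5 liver genes. Of 6 muscle fibre genes, CKM (0.26) and DES (0.39) were higher and NEB (-0.57) was lower. Over all tested probe sets 33.5% passed as higher and 35% as lower in S, so these counts say nothing particular about the cell types. The part of the controls, RNA quality and marker genes in the differences above was not tested. Animals and array handling cannot be told apart between the title series.

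**Figure D4:**
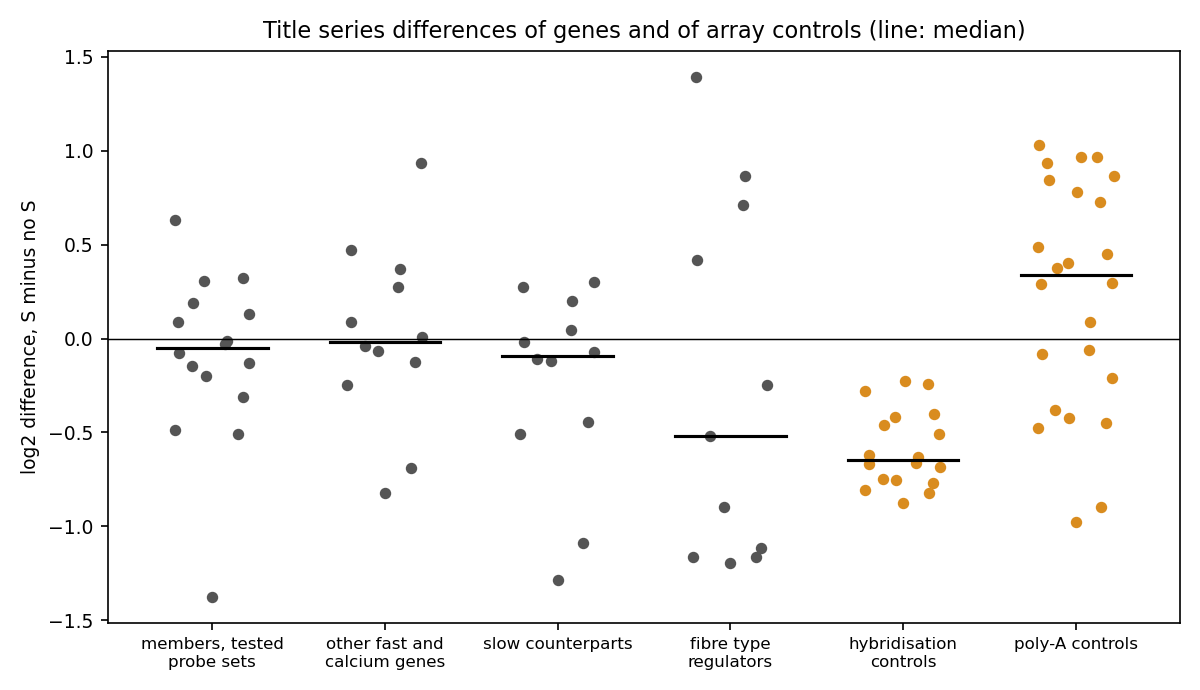
Log2 differences between S and no S animals for the 16 tested fast fibre probe sets, the tested genes of 3 related lists and the array controls, with a line at each median. The 18 hybridisation controls all lie below 0, while the fast fibre probe sets run from -1.37 to 0.63.

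The IMF difference did not depend detectably on title series. The interaction called 0 of 14409 probe sets (0%), with 788 at an unadjusted p under 0.05, and 0 of the 16 fast fibre probe sets. MYLPF probe set 2 had an interaction of -0.25 (interval -0.52 to 0.02) and MYH1 probe set 3 of -0.24 (interval -0.50 to 0.02), both with an adjusted p of 0.862. With 5 animals in each cell, intervals of this width do not exclude changes of those sizes. Within S animals alone, the IMF difference of ATP2A1 probe set 1 was 0.0018, and within no S animals 0.10.

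Slow fibre genes were set beside their fast partners from a list of slow counterparts, of which 12 of 14 had a tested probe set. None of the 12 passed between high and low IMF, and all 12 were lower in high IMF animals on the probe set with the highest signal, with a median of -0.14. Over all tested probe sets the median was -0.03 and 59.8% were lower, and 73.9% of the 414 bright ones were. All 12 were also lower after centring (median -0.10) and under quantile normalization (median -0.11), where the medians of all tested probe sets were 0.0099 and 0.0050. How many of all tested probe sets were lower under these scalings was not counted. Not every other probe set of the slow genes was lower: a second MYBPC1 probe set differed by 0.0043, and a second MYH7 probe set by -0.02, or by 0.02 after centring. Phospholamban (PLN), the inhibitor of the slow-fibre pump, differed by -0.74, slow troponin T (TNNT1) by -0.19 and the light chain MYL6B by -0.70, each with an adjusted p of 0.9997. For the title series 0 of the 12 passed as higher and 5 as lower in S animals, where 33.5% of all tested probe sets passed as higher and 35% as lower. Under either other scaling 0 passed as higher and 4 as lower. Of all tested probe sets 69.7% were called after centring, with 54.1% of the calls higher. Under quantile normalization 70% were called, with 52.8% of the calls higher. ATP2A2, the slow and cardiac pump, was lower on the probe set with the highest signal, with a lowest, median and highest signal of 8422, 11359 and 13121 in S animals, against 13371, 14663 and 16139 in no S animals (-0.44, adjusted p = 5.03e-05), the opposite direction to ATP2A1.

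MYBPC1, the slow myosin-binding protein C, was lower in S animals (-0.51, adjusted p = 3.21e-07), as were PLN (-1.28, adjusted p = 9.39e-05) and MYOZ2, the slow partner of MYOZ1 (-1.09, adjusted p = 0.00244). Slow myosin MYH7 (-0.07), MYL2 (-0.02), TNNT1 (0.04), ACTN2 (-0.11), TPM3 (0.20), MYL3 (0.27) and MYL6B (0.30) did not pass. TNNC1, the slow counterpart of TNNC2, passed on its brightest probe set (-0.12, adjusted p = 0.0448), and after centring its difference was -0.05 with an adjusted p of 0.364. A second TNNC1 probe set differed by -0.09 and did not pass (adjusted p = 0.134). TNNI1 had no probe set in the annotation used here.

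Of 12 tested genes on a list of other fast fibre and calcium release genes, 4 were higher and 3 lower in S animals, and 0 passed between the IMF groups. These 7 stand beside 68.4% called over all tested probe sets, so the count is no result about the list. PYGM, the glycogen phosphorylase of muscle, had 15992, 16896 and 17892 in S animals, against 11165, 12354 and 13832 in no S animals, higher by 0.47 (adjusted p = 3.24e-07). CACNB1, a subunit of the voltage sensor that triggers calcium release, was higher by 0.93 (adjusted p = 8.03e-09), and JPH1, which holds the reticulum against the surface membrane, was lower (-0.82, adjusted p = 1.68e-09). All 3, which had the smallest p of the list, separated the title series without overlap. LDHA of the same list did as well, and so did 19.8% of all tested probe sets. The genes with the smallest p between IMF groups were FBP2 (0.11), ATP1B1 (-0.20) and PFKM (-0.05), none of which passed.

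Among 11 tested fibre type regulators, 4 were higher and 6 lower in S animals, with a median of -0.52, where 68.4% of all tested probe sets were called and their median was -0.0011. MYOD1, a muscle transcription factor enriched in fast fibres of rodents, was higher by 1.39 (adjusted p = 4.85e-07), while PPP3CA, the calcineurin catalytic subunit, and MEF2A, one of the transcription factors it acts on, were lower with differences of -1.16 and -1.12 (adjusted p = 2.43e-08 and 1.65e-07). Between high and low IMF animals 0 of the 11 passed, and PPARGC1A (-0.43), MEF2A (-0.32) and RCAN1 (0.41) had the smallest p. Between the title series, the other lower genes were PPP3CB (-0.52), MEF2C (-0.90), PPARGC1A (-1.16) and RCAN1 (-1.20, adjusted p = 0.000376). The other higher genes were NFATC1 (0.42), HDAC5 (0.71) and MYOG (0.86).

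How the fast fibre genes varied with each other was taken within each title series, over the 36 pairs of the 9 genes with 10 animals per series and permutation p-values adjusted over the 36. On the deposited scale 1 pair passed among S animals, MYH1 and TNNT3 (r = 0.92, adjusted p = 0.00324, rho = 0.95, adjusted p = 0.0054), and r was 0.89 without the 2 animals farthest from the median MYH1 value. The same pair had r = -0.22 among no S animals, where 0 pairs passed. After centring, 14 pairs passed among S animals and 1 among no S animals, MYLPF with TNNC2 (r = 0.90, adjusted p = 0.0216). By rank correlation 6 pairs passed among S animals and 0 among no S animals after centring, and MYLPF with TNNC2 had rho = 0.84 with an adjusted p of 0.142. Before centring, MYLPF and TNNC2 had r = 0.87 among no S animals with an adjusted p of 0.0605. Centring adds 1 number to all genes of an array, and high IMF replicates 6 and 9, the arrays with the lowest medians, are both S animals.

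**Figure D5:**
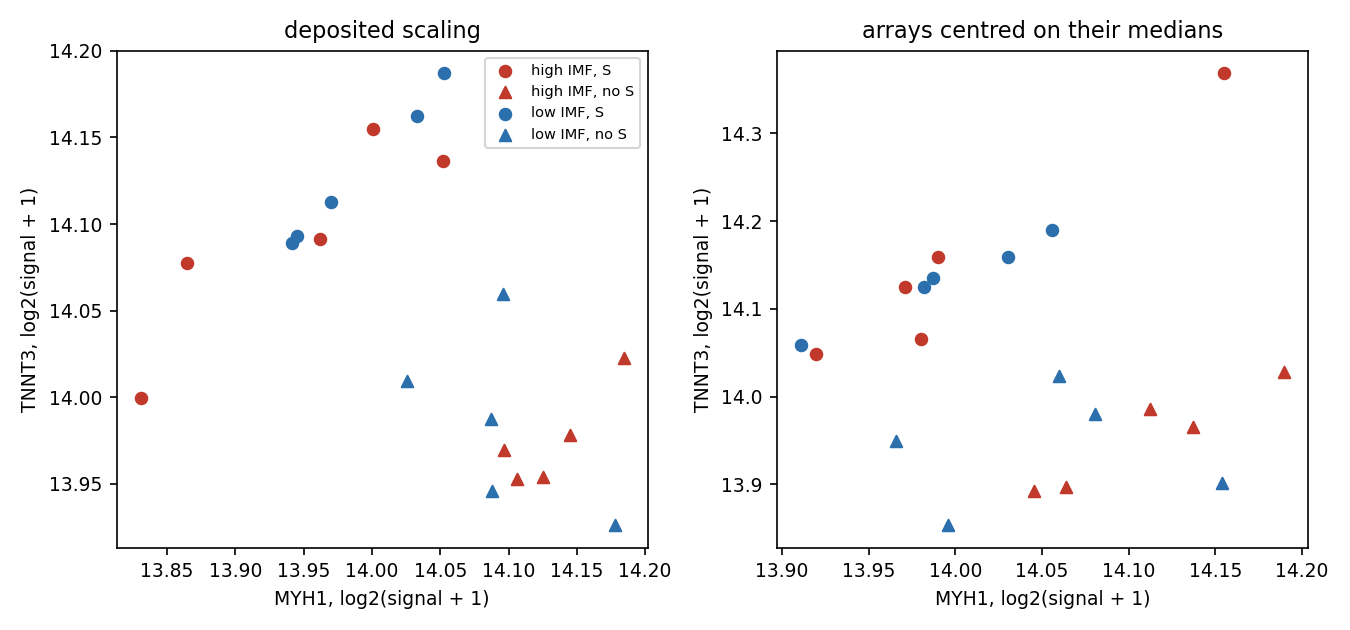
TNNT3 against MYH1, log2(signal + 1) on probe set 1 of each, 1 point per animal (red for high IMF, blue for low IMF, circles for S, triangles for no S), on the deposited scale at left and with arrays centred on their medians at right. The 10 S animals follow a line at left with r = 0.92, and the 10 no S animals, lower in TNNT3, do not.

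The genes most like MYH1 probe set 1 over all 20 animals were taken from 8961 other probe sets with a single symbol, by Pearson's r on centred arrays. HNRNPK (0.85), MORF4L1 (0.80), GATA5 (0.78), TMED10 (0.78) and TPT1 (0.78) had the highest r, and the same genes had r from 0.69 to 0.79 within title series. LYN (-0.73), ARHGAP27 (-0.69) and PPP1R10 (-0.69) had the lowest. The points share array, scaling and title series, and the values are a description of these arrays. No other fast fibre gene was among these 8.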

How the data were processed

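Total RNA of the muscle of 20 animals was measured on an Affymetrix cattle array. Extraction used TRI Reagent with a DNase I step and RNeasy clean-up before biotin labelling, per the labels' protocols. Per the submitters' processing notes, GCOS 1.1.1 and Affymetrix Expression Console 1.1 were used. The method of probe summary and array scaling is not given in the sources. Each deposited value is an intensity on a linear scale for 1 probe set, and the deposited scaling was kept.

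From the 24128 probe sets, 112 array controls were removed, log2(value + 1) was used throughout, and the 40% with the lowest mean were left out, leaving 14409. Fold changes on this scale understate changes of dim probe sets. Groups were compared with limma 3.58.1 in R 4.3.3 (two-sided, Benjamini-Hochberg adjustment, threshold 0.05), fitted on all tested probe sets. IMF was fitted alone, title series with IMF in the model, and their interaction separately. Correlations used permutation tests with 100000 resamples. Gene symbols came from the platform annotation, which gave 1 symbol for 13318 probe sets, several for 86 and none for 10724. A gene on a list was represented by its probe set with the highest mean. The number of arrays limits the precision. No genome build is stated, so no coordinates are given. The limma code was tested on simulated data.

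Named in the text were every fast fibre probe set, the slow partner of each gene, the 3 genes of smallest p per comparison in each of 3 related lists, and for MYH1 the 5 genes of highest and 3 of lowest r. Outside this rule, further genes of these lists and of the marker lists were named beside the counts of their list. The genes and lists were chosen with earlier results of these data known. Alternatives were other scalings (median centring, quantile normalization), a pseudocount of 16, no filter, the title series or IMF as covariate, fits within groups, an unpaired t-test, and leaving out arrays. The fits of title series within each IMF group, and the counts of list genes under the alternatives, were added after the data were seen. The series text names a paired t-test, but the labels pair no animals.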

Additional observations from a re-analysis of the deposited data

Results flagged for a closer look

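In 1 of 38 groups of 10 animals a single animal stood apart from the rest by its gap over the range. The log2(signal + 1) of MYH1 probe set 6 was 0.60 in high IMF replicate 10, a signal of 0.52, and its gap to the next animal was 0.496 of the range of the 10 high IMF animals. Chance gives such a gap in about 1 of 20 groups. The probe set is one of the 3 dim MYH1 probe sets left out of the test, and no result rests on it.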

How the results depend on the processing

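Under the alternatives run, IMF and the interaction called 0 fast fibre probe sets. For S against no S, the number called was 7 in place of 11 without the 4 arrays rich in albumin signal, 4 within high IMF and 5 within low IMF animals alone (10 animals each), 10 or 11 under the other scalings, filters, models and arrays, and 9 to 11 when 1 animal was left out (9587 to 9841 probe sets over the whole array). Of all 14409 tested probe sets 61.6% were called without the 4 albumin arrays, against 68.4% with all arrays. The shares of all tested probe sets within each IMF group were not counted. Without a filter 52.3% of 24016 probe sets were called. Centring moved the median of all title series differences to 0.06 and the share of calls that were higher to 54.1%, against 48.9%. Correlated pairs past the threshold after centring were 14 in S and 1 in no S, against 1 and 0. IMF differences near 0 changed sign: after centring, MYH1 probe sets 1 and 3 (0.034, 0.039), MYLPF 1 (0.034), TNNT3 (0.016) and TNNC2 (0.031); under quantile normalization, MYH1 1 and 3 (0.016, 0.055), MYLPF 1 (0.0077) and TNNC2 (0.014); without the albumin arrays, MYH1 3 (0.018); without high IMF replicates 6 and 9, MYH1 1 and 3 (0.028, 0.063), TNNI2 (-0.00080), MYOZ1 (0.0048) and TPM1 2 (0.020); within S, MYLPF 1 and 2 (0.027, -0.041), TNNC2 (0.022), RCAN1 (-0.098), FBP2 (-0.016) and MYL6B (0.038); within no S, MYH1 1 and 3 (0.036, 0.12), TNNI2 (-0.0045), MYOZ1 (0.0097) and PPARGC1A (0.0096). Title series differences changed sign for TNNI2 and TNNC2 after centring (0.038, 0.051) and quantile normalization (0.075, 0.042), and for TNNC2 within high IMF (0.015). Leaving out 1 animal moved the IMF difference from -0.021 to 0.018 for MYH1 1, -0.036 to 0.043 for MYH1 3, -0.22 to 0.066 for MYH1 5, -0.016 to 0.0049 for MYLPF 1, -0.00055 to 0.017 for TNNI2, -0.021 to 0.00043 for TNNC2 and -0.017 to 0.11 for ATP2A1 1. The cause of these changes was not tested. No paired analysis was possible because the labels pair no animals. MYH2 against MYH1 was planned and not run, since MYH2 has no probe set here. The number of arrays and the dim signals of some probe sets limit what could be detected.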
